A study of Mus musculus with 4 samples.

Results

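Macrophages of the fetal thymus were followed through 9 genes, C1qa, C1qb, C1qc, Pf4, Csf1r, Mrc1, Lyz2, Apoe and Aif1, out of the 27998 genes counted. The genes were chosen by their measured levels in cells with Csf1r transcripts, so the levels in those cells and their differences between libraries are descriptions and were not tested. Thymic lobes of E13 to 13.5 mouse embryos from Tbx1+/neo2 intercrosses had been dissociated and profiled by droplet single cell RNA sequencing, in which each transcript is counted once by its UMI (unique molecular identifier). In the neo2 allele an intron of Tbx1 holds a neomycin cassette that lowers the wild-type transcript, and the homozygous embryos model the hypoplastic thymus of 22q11.2 deletion syndrome. The 4 libraries came from Tbx1+/+ embryos whose dams received ethanol carrier, and from Tbx1neo2/neo2 embryos whose dams received carrier, minoxidil or prostaglandin E2 (PGE2). All dams were injected intraperitoneally before the thymus forms, and the vehicle of minoxidil and PGE2 is not given in the sources used here. Hypoplastic lobes were pooled and the number of embryos behind each library is not given in the sources used here.

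There was 1 library per condition. No spread between embryos could be measured, no test was made, and the 95% intervals given in parentheses cover counting error only. The libraries held 151740600 to 292687940 UMIs, and 3201 to 11474 cells per library were kept, 29510 in all. The median number of UMIs per kept cell was 21125 in Tbx1+/+ carrier, 14108 in Tbx1neo2/neo2 carrier, 41084 in minoxidil and 34790 in PGE2, and 91 cell barcodes occurred in more than 1 library. Tbx1 itself did not separate the genotypes over all kept cells, at 2.28 CPM (UMIs per 1000000 UMIs of the cells summed) in Tbx1+/+ carrier and 2.33, 2.46 and 1.14 in the 3 Tbx1neo2/neo2 libraries. The makeup of cell types differed between libraries. In epithelial cells alone Tbx1 was 2.22 CPM (1.94 to 2.52) in Tbx1+/+ carrier and 1.17 (0.833 to 1.60), 1.38 (1.09 to 1.72) and 0.327 (0.197 to 0.511) in Tbx1neo2/neo2 carrier, minoxidil and PGE2, lower in all 3 homozygous libraries with no overlap with Tbx1+/+ carrier. In endothelial cells it went the other way, at 12.5 (10.1 to 15.3), 17.2 (13.8 to 21.2), 18.1 (14.6 to 22.3) and 19.95 CPM (15.5 to 25.3) in the same order. There only the interval of PGE2 lay clear of that of Tbx1+/+ carrier. In mesenchymal cells Tbx1 was at 3.27, 2.30, 3.74 and 2.03 CPM, so the check of the genotype held in epithelial cells and not in every class.

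C1q is the recognition molecule of the classical complement pathway. It is built from the A, B and C chains that C1qa, C1qb and C1qc encode, and unlike most complement components it is made by tissue macrophages and not mainly by the liver. It binds immune complexes and dying cells and helps phagocytes to clear them, and in the thymus macrophages take up the many thymocytes that die. Csf1r encodes the receptor for the growth factors CSF1 and IL-34, on which most tissue macrophages depend. Mrc1 encodes the mannose receptor CD206, an endocytic scavenger receptor, and Apoe a lipid carrier that macrophages secrete. Lyz2 encodes lysozyme, Aif1 the calcium-binding protein IBA1 and Pf4 the chemokine CXCL4, which is known best from platelets and is also made by several fetal and tissue macrophages.

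The 3 C1q genes lie side by side on the minus strand of mouse chromosome 4 (GRCm38), within 18675 bases, with C1qb at chr4:136880129-136886187, C1qc at chr4:136889804-136893065 and C1qa at chr4:136895917-136898803. Pf4 lies at chr5:90772435-90773383 on the plus strand, Mrc1 at chr2:14229392-14332057 on the plus strand, Lyz2 at chr10:117277331-117282321 on the minus strand, Apoe at chr7:19696109-19699188 on the minus strand and Aif1 at chr17:35170991-35176068 on the minus strand. The bases just upstream of 4 of these genes are shown, since C1qb and C1qc were counted in the same cells of all libraries while Pf4 and Mrc1 were the members that differed most between libraries over all Csf1r-positive cells. Sequences are from RefSeq for GRCm38.p6, 5′ to 3′ on the strand of the gene, and end before the first annotated exon. Capitals mark the letters GAGGAA or, on the other strand, TTCCTC, the core of the sites that PU.1 and related ETS factors of myeloid cells bind.
C1qb (chr4:136886201-136886450, minus strand, 250 bases): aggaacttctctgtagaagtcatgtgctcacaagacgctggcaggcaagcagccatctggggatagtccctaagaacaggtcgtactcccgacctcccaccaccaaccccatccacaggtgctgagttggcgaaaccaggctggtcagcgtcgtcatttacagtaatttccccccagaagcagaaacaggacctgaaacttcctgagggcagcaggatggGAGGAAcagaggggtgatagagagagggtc
C1qc (chr4:136893066-136893164, minus strand, 99 bases): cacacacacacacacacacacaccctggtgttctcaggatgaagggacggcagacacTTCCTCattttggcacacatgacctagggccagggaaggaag
Mrc1 (chr2:14229164-14229391, plus strand, 228 bases): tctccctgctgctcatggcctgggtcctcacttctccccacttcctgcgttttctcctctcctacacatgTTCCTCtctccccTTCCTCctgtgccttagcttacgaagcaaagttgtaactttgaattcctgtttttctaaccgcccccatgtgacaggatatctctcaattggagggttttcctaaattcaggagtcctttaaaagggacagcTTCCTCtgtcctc
Pf4 (chr5:90772185-90772434, plus strand, 250 bases): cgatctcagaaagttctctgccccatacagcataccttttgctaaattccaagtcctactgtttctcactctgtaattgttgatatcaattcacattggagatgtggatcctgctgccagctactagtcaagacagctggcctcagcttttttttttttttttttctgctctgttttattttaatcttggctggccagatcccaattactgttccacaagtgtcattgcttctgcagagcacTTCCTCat
Among the 9 genes, 7 had a RefSeq entry, all but C1qa and Csf1r. Within 250 bases upstream, 6 of the 7 held the letters on either strand, and Lyz2 did not, against 25.9% of the 27025 genes with an entry. The motif was chosen with these sequences in view, and a match is a description of the letters and not a binding site.

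Csf1r-positive cells, those with at least 1 Csf1r UMI, numbered 447 of 11474 in Tbx1+/+ carrier, 301 of 10683 in Tbx1neo2/neo2 carrier, 122 of 3201 in minoxidil and 131 of 4152 in PGE2, 1001 in all. Their shares of kept cells were 3.90% (3.55 to 4.27), 2.82% (2.51 to 3.15), 3.81% (3.17 to 4.53) and 3.16% (2.64 to 3.73). The remaining cells were 5339 other Ptprc-positive cells, those with a UMI of the pan-leukocyte gene Ptprc and none of Csf1r, and 23170 cells of other types. The gate of 1 UMI was not pure. Of the Csf1r-positive cells, 58.8% in Tbx1+/+ carrier, 31.2% in Tbx1neo2/neo2 carrier, 49.2% in minoxidil and 54.2% in PGE2 held exactly 1 Csf1r UMI. Cells with at least 6 Csf1r UMIs numbered 110, 137, 37 and 35, and this stricter gate, set after the values had been seen, gave a different order of the libraries, with 0.959% (0.789 to 1.15), 1.28% (1.08 to 1.51), 1.16% (0.815 to 1.59) and 0.843% (0.588 to 1.17) of kept cells. Under the gate of 1 UMI the interval of Tbx1neo2/neo2 carrier lay below those of Tbx1+/+ carrier and minoxidil, and under the gate of 6 UMIs the intervals of all 4 libraries overlapped one another. As a share of cells with a Ptprc or Csf1r UMI, cells with at least 6 Csf1r UMIs made up 12.1% (10.2 to 14.1) in Tbx1neo2/neo2 carrier against 3.46% in Tbx1+/+ carrier, 4.80% in minoxidil and 2.79% in PGE2. The other leukocytes in that denominator were 2733 of 11474 cells in Tbx1+/+ carrier and 835 of 10683 in Tbx1neo2/neo2 carrier. Fewer leukocytes of other kinds and more macrophages cannot be told apart in such a share.

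The cells carried transcripts of macrophages and also of other cell types. All 10 macrophage markers, which share no gene with the 9 members, were detected in the Csf1r-positive cells of each library and summed to 2067, 2435, 2157 and 2016 CPM in Tbx1+/+ carrier, Tbx1neo2/neo2 carrier, minoxidil and PGE2. In cells with at least 6 Csf1r UMIs they summed to 5484, 4981, 5656 and 6737 CPM. Markers of related myeloid cells were present too, with 6 monocyte markers at 793 to 1166 CPM and 9 dendritic markers at 214 to 997 CPM in Csf1r-positive cells. The dendritic gene Clec9a was at 0 in 3 of the 4 libraries. All 8 epithelial and all 8 mesenchymal markers were detected in Csf1r-positive cells of both carrier libraries as well. They summed to 1021 and 623 CPM in Tbx1+/+ carrier and to 788 and 2683 CPM in Tbx1neo2/neo2 carrier. Detection of a list thus does not name the cells.

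Csf1r-positive cells were also split by their number of Csf1r UMIs. Among these classes, every member other than Csf1r, which set them, was highest in every library in the cells with the most Csf1r UMIs. C1qa was at 27.3, 30.8, 29.9 and 5.80 CPM in the cells with 1 Csf1r UMI of Tbx1+/+ carrier, Tbx1neo2/neo2 carrier, minoxidil and PGE2. In the cells with at least 6 UMIs it was at 2136, 1508, 2051 and 2733 CPM in the same order. The plot of levels by Csf1r UMIs shows the same for Pf4, Mrc1 and Lyz2, and the mean over Csf1r-positive cells therefore depends on how many cells with 1 UMI a library contributed. Epithelial cells, which should lack C1q, held a UMI of at least 1 C1q gene but not of all 3 in 8.45% of cells in Tbx1+/+ carrier, 3.27% in Tbx1neo2/neo2 carrier, 4.21% in minoxidil and 1.45% in PGE2, at median depths of 25008, 25902, 51790 and 43133 UMIs. A single C1q UMI in a cell has to be read against these shares.

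**Figure D1:**
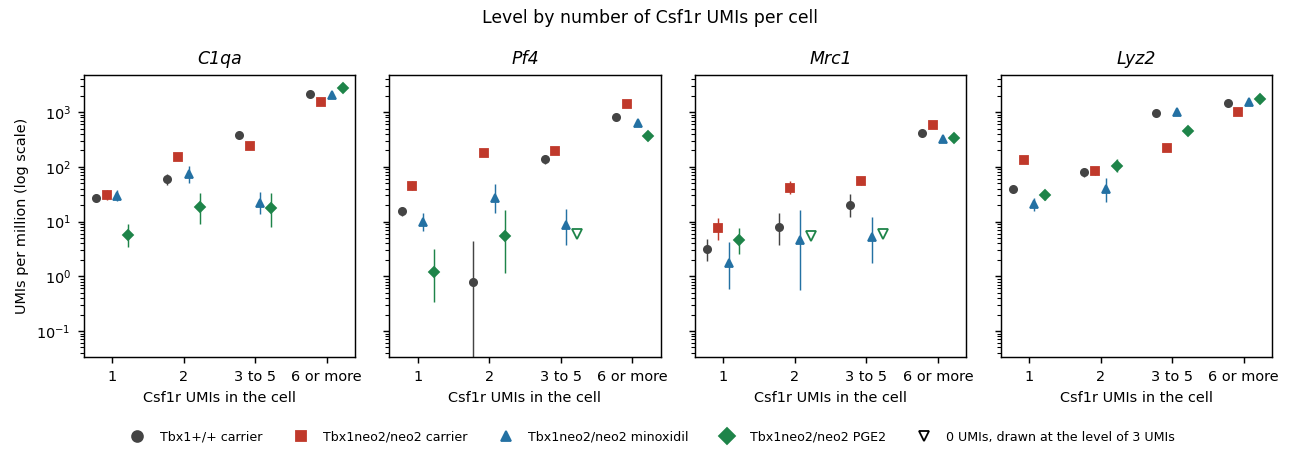
Level of C1qa, Pf4, Mrc1 and Lyz2 (CPM over the summed cells, log scale) in cells with 1, 2, 3 to 5 or at least 6 Csf1r UMIs, with 1 point per library, bars for 95% Poisson intervals of counting error and open triangles for 0 UMIs, drawn at the level of 3 UMIs. C1qa in Tbx1+/+ carrier is at 27.3 CPM in the first and 2136 CPM in the last class, and each of the 4 genes is highest in the last class in each library.

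In cells with many Csf1r UMIs the 3 C1q genes were nearly always present together or not at all. In cells with at least 6 Csf1r UMIs, 106 of 110 in Tbx1+/+ carrier, 135 of 137 in Tbx1neo2/neo2 carrier, 31 of 37 in minoxidil and 32 of 35 in PGE2 had a UMI of all 3 genes. Only 2 of the 319 cells in this class had 1 or 2 of the 3 genes, 1 in Tbx1neo2/neo2 carrier and 1 in minoxidil. With the looser gate of at least 1 Csf1r UMI, all 3 genes were found in 34.9% (30.5 to 39.5) of cells in Tbx1+/+ carrier, 67.1% (61.5 to 72.4) in Tbx1neo2/neo2 carrier, 38.5% (29.9 to 47.8) with minoxidil and 29.0% (21.4 to 37.6) with PGE2. Tbx1neo2/neo2 carrier stood above the other 3 libraries in this share, and it also had the lowest share of cells with a single Csf1r UMI.

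The relative amounts of the 3 chains lay within a few percentage points between libraries. C1qb gave 39.6% of C1q UMIs in Csf1r-positive cells of all libraries, C1qa 32.8% and C1qc 27.6%. Between libraries, C1qb ranged from 38.0% in Tbx1+/+ carrier to 41.5% in Tbx1neo2/neo2 carrier, C1qa from 31.3% in Tbx1neo2/neo2 carrier to 35.2% in PGE2, and C1qc from 26.4% in PGE2 to 28.5% in Tbx1+/+ carrier. The order C1qb, C1qa, C1qc held in all 4 libraries. These shares are of UMIs and not corrected for the length of the transcripts, so they do not give the ratio of the chains.

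C1qa over all Csf1r-positive cells was at 621 CPM (607 to 635) in Tbx1+/+ carrier, 658 (643 to 673) in Tbx1neo2/neo2 carrier, 631 (611 to 651) with minoxidil and 597 (576 to 617) with PGE2. C1qb was at 704, 873, 783 and 650 CPM, and C1qc at 527, 575, 536 and 447 CPM in the same order. All 3 genes were highest in Tbx1neo2/neo2 carrier and lowest in PGE2, and none differed by 1.5-fold in the 3 contrasts. In cells with at least 6 Csf1r UMIs the order turned, with Tbx1neo2/neo2 carrier lowest and PGE2 highest for each chain. C1qb there was at 2399, 1995, 2529 and 2963 CPM, and C1qc at 1819, 1336, 1730 and 2050 CPM.

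Many of the cells with at least 6 Csf1r UMIs also carried transcripts of other cell types. The 8 mesenchymal markers summed to 2151 CPM in these cells of Tbx1neo2/neo2 carrier, against 518 in Tbx1+/+ carrier, 491 in minoxidil and 159 in PGE2, and all 8 were detected in Tbx1neo2/neo2 carrier. When cells with 1000 CPM or more of epithelial, mesenchymal, endothelial and T-lineage markers together were left out, 81 of 110, 103 of 137, 34 of 37 and 30 of 35 cells remained. Unmixed refers to these marker lists only. In these cells, 2.65% of 4598 genes were higher and 4.50% lower by 1.5-fold in Tbx1neo2/neo2 carrier than in Tbx1+/+ carrier. Acta2 was among the higher, with 108 against 1 UMIs, and Igfbp5, with 153 against 15. The haemoglobin gene Hbb-bs was at 2213 CPM in Tbx1neo2/neo2 carrier, 51.6 in minoxidil and 89.1 in PGE2. In these unmixed cells C1qa was at 2873 CPM in Tbx1+/+ carrier, 2445 in Tbx1neo2/neo2 carrier, 2141 in minoxidil and 2991 in PGE2, and C1qb at 3240, 3199, 2723 and 3286 CPM. The largest difference of a C1q gene in the 3 contrasts was then 1.22-fold, for C1qa in PGE2 over Tbx1neo2/neo2 carrier. The C1q genes thus had no direction that held across gates. The part of the other cell types' transcripts in this was not tested beyond leaving these cells out.

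**Figure D2:**
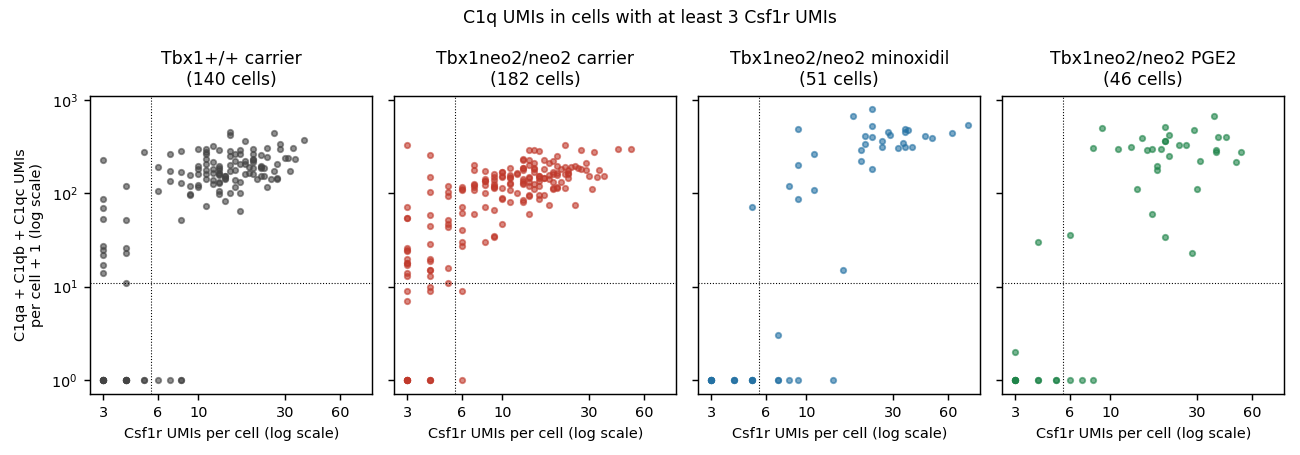
C1q UMIs per cell (C1qa, C1qb and C1qc summed, plus 1) against Csf1r UMIs per cell, both on log scales, for the 419 cells with at least 3 Csf1r UMIs, one panel per library. Dotted lines mark 10 C1q UMIs and the step between 5 and 6 Csf1r UMIs, and the cells fall into a group at 0 and a group at 10 or more, with 7 cells between.

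Cells with several Csf1r UMIs nearly all held either many C1q UMIs or none. Of the 419 cells with at least 3 Csf1r UMIs, 353 had 10 or more C1q UMIs, 59 had none and 7 had 1 to 9. The cells without C1q numbered 19 of 140 in Tbx1+/+ carrier, 10 of 182 in Tbx1neo2/neo2 carrier, 18 of 51 in minoxidil and 12 of 46 in PGE2. They made up 0.0936% (0.0449 to 0.172) of kept cells in Tbx1neo2/neo2 carrier and 0.562% (0.334 to 0.887) in minoxidil, with Tbx1+/+ carrier at 0.166% and PGE2 at 0.289%. The median depth of Csf1r-positive cells was 22262, 24623, 43425 and 37248 UMIs in Tbx1+/+ carrier, Tbx1neo2/neo2 carrier, minoxidil and PGE2, and the part of depth in these shares was not tested.

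Apoe, Pf4, Mrc1 and Aif1 followed C1q in this split, pooled over libraries. Apoe was at 11146 CPM in the cells with C1q and 188 CPM in those without, Pf4 at 896 and 1.01 CPM, and Mrc1 at 412 and 1.69 CPM. Aif1 was at 579 CPM with C1q and 63.9 CPM without. Lyz2 differed less, at 1138 CPM with C1q and 797 CPM without, and was at 1945 CPM in the unmixed cells with C1q. Pooled over libraries, cells without C1q were deeper, with a median of 45141 UMIs against 24086. The deeper libraries, minoxidil and PGE2, gave 18 and 12 of the 59 cells without C1q. They gave 32 and 33 of the 353 cells with C1q. The part of this mix of libraries in the pooled values was not tested. Of other genes described in these cells after their values were seen, Plac8, which is high in monocytes, was at 1647 CPM without C1q and 191 CPM with it, and the monocyte chemokine receptor gene Ccr2 at 149 and 34.7 CPM. Of the same monocyte markers, Ly6c2 was at 38.6 CPM without C1q and 0.254 CPM with it. Fn1 went the other way, at 47.4 CPM without and 161 CPM with C1q, and at 43.9 CPM in the unmixed cells with C1q. The neutrophil gene S100a8 ranged from 45.3 to 4126 CPM between libraries in the cells without C1q. The split itself used C1q, and it gives 2 ranges of cells and not 2 named cell types.

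Pf4 was the member that differed most between libraries over all Csf1r-positive cells. It was at 235 CPM (226 to 244) in Tbx1+/+ carrier, 619 (604 to 634) in Tbx1neo2/neo2 carrier, 199 (188 to 211) with minoxidil and 81.5 (74.2 to 89.4) with PGE2. Tbx1neo2/neo2 carrier stood highest, PGE2 lowest, and no interval overlapped another. Pf4 was 2.64-fold higher in Tbx1neo2/neo2 carrier than in Tbx1+/+ carrier, with a log2 ratio of 1.40 (1.34 to 1.46). Against Tbx1neo2/neo2 carrier, it was 3.11-fold lower in minoxidil and 7.60-fold lower in PGE2. Both drug contrasts share this 1 control library, which is also the first library of the genotype contrast.

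The difference in Pf4 was present in cells with many Csf1r UMIs and in the median cell. With at least 6 Csf1r UMIs, Pf4 was at 808, 1412, 645 and 372 CPM in Tbx1+/+ carrier, Tbx1neo2/neo2 carrier, minoxidil and PGE2, and in the unmixed cells among them at 1267, 2255, 725 and 446 CPM. The median cell with at least 6 Csf1r UMIs held 412, 1552, 112 and 133 CPM of Pf4, so the 2 drug libraries exchanged places while Tbx1neo2/neo2 carrier remained highest. No Pf4 UMI was found in 17 of 110, 11 of 137, 9 of 37 and 7 of 35 cells. Between the 25th and 75th percentile of cells, Pf4 spanned 63.2 to 1578 CPM in Tbx1+/+ carrier and 244 to 2639 CPM in Tbx1neo2/neo2 carrier. In minoxidil it spanned only 28.6 to 700 CPM and in PGE2 39.5 to 560 CPM, narrower than the range of the 4 library medians. Between the 5th and 95th percentile, cells of each library spanned a wider range than the medians, from 0 to 3766, 5206, 3586 and 3164 CPM. The 6 megakaryocyte and platelet markers summed to at most 8.60 CPM in the cells with at least 6 Csf1r UMIs, and all 6 were at 0 in minoxidil. Over all Csf1r-positive cells they summed to 8.40 to 10.7 CPM.

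Mrc1 went the same way as Pf4 and by less. Over Csf1r-positive cells it was at 116 CPM (110 to 122) in Tbx1+/+ carrier, 243 (233 to 252) in Tbx1neo2/neo2 carrier, 96.8 (89.0 to 105) with minoxidil and 75.4 (68.3 to 83.0) with PGE2. The log2 ratio of Mrc1 was 1.07 (0.97 to 1.16) for Tbx1neo2/neo2 carrier over Tbx1+/+ carrier, -1.33 (-1.46 to -1.20) for minoxidil over Tbx1neo2/neo2 carrier and -1.69 (-1.84 to -1.54) for PGE2 over Tbx1neo2/neo2 carrier. In the unmixed cells with at least 6 Csf1r UMIs, Mrc1 was at 618, 928, 358 and 388 CPM, again highest in Tbx1neo2/neo2 carrier, and the log2 ratios were 0.59, -1.37 and -1.26.

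The 2 genes were also compared among cells that all carried C1q. In the 121, 167, 32 and 33 cells with at least 3 Csf1r and 10 C1q UMIs, Pf4 was at 821, 1049, 816 and 402 CPM and Mrc1 at 411, 422, 406 and 364 CPM in Tbx1+/+ carrier, Tbx1neo2/neo2 carrier, minoxidil and PGE2. Among these cells Mrc1 was within 1.5-fold in all 3 contrasts, with log2 ratios of 0.04, -0.06 and -0.21. Pf4 passed the fold only in PGE2, with ratios of 0.35, -0.36 and -1.38. The mesenchymal markers summed to 536, 2404, 600 and 327 CPM in the same cells, highest in Tbx1neo2/neo2 carrier. The 3 C1q genes, Lyz2, Apoe and Aif1 were all lower in Tbx1neo2/neo2 carrier than in Tbx1+/+ carrier there, 6 members against 7.28% of 8197 genes, with none higher (10.9%). Over the same Tbx1neo2/neo2 carrier cells, 7 members were higher in minoxidil (10.2% of 7363 genes) and none lower (21.2%), and 7 were higher (11.6% of 7266 genes) and 1 lower (23.1%) in PGE2. The members higher in both drug libraries include C1qa, C1qb, C1qc and Csf1r, whose UMIs set this class. These counts are thus not independent of the gate, and nothing is read from them.

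When the mixed cells were left out of this class as well, 88, 115, 29 and 27 cells remained and the ratios were larger again. Pf4 was then at 1274, 2235, 962 and 515 CPM, with log2 ratios of 0.81 (0.74 to 0.88), -1.22 (-1.31 to -1.12) and -2.12 (-2.26 to -1.97). Mrc1 was at 612, 903, 478 and 449 CPM, with log2 ratios of 0.56 (0.45 to 0.67), -0.92 (-1.06 to -0.78) and -1.01 (-1.17 to -0.85). Both genes were highest in Tbx1neo2/neo2 carrier and lowest in PGE2, and only Mrc1 in the genotype contrast fell short of 1.5-fold. Pf4 was thus the 1 member higher in Tbx1neo2/neo2 carrier than in Tbx1+/+ carrier (2.20% of 4725 genes), and none was lower (4.40%). In minoxidil 2 members were lower (6.75% of 4074 genes) and none higher (5.60%), and in PGE2 2 were lower (7.81% of 3828 genes) and 1, Aif1, was higher (7.58%). Over 13 alternative gates, filters and scalings, 5 of them defined by gates or a doublet score added after the data had been seen, the log2 ratios of Pf4 and Mrc1 kept their sign in all 3 contrasts. They passed 1.5-fold in 11, 12 and 13 of the 13 for Pf4 and in 9, 11 and 12 for Mrc1. All alternatives used the same libraries, so a kept sign is no replication.

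Other transcripts in these cells differed between the libraries as well. In the unmixed cells with at least 3 Csf1r and 10 C1q UMIs, the dendritic markers summed to 247, 105, 846 and 396 CPM and the monocyte markers to 281, 161, 470 and 287 CPM, both lowest in Tbx1neo2/neo2 carrier, where Pf4 and Mrc1 were highest. The class II genes H2-Aa and H2-Ab1, which are in the dendritic list, had 0 and 6 UMIs in Tbx1neo2/neo2 carrier and 150 and 140 in minoxidil. Of the same list, Cd74 was at 70.9 to 565 CPM over the libraries and Flt3 at 0.455 to 1.23 CPM. The sum of the list thus does not name dendritic cells. The macrophage markers were nearly level, at 7589, 7940, 7701 and 7931 CPM. The haemoglobin gene Hbb-bs had 63, 4535, 58 and 77 UMIs, so that transcripts of red cells were also most frequent in Tbx1neo2/neo2 carrier. The smooth muscle actin gene Acta2 had 110 UMIs in Tbx1neo2/neo2 carrier, 1 in Tbx1+/+ carrier, 2 in minoxidil and 0 in PGE2. The part of the transcripts of these lists, of red cells and of Acta2 in the ratios of Pf4 and Mrc1 was not tested.

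**Figure D3:**
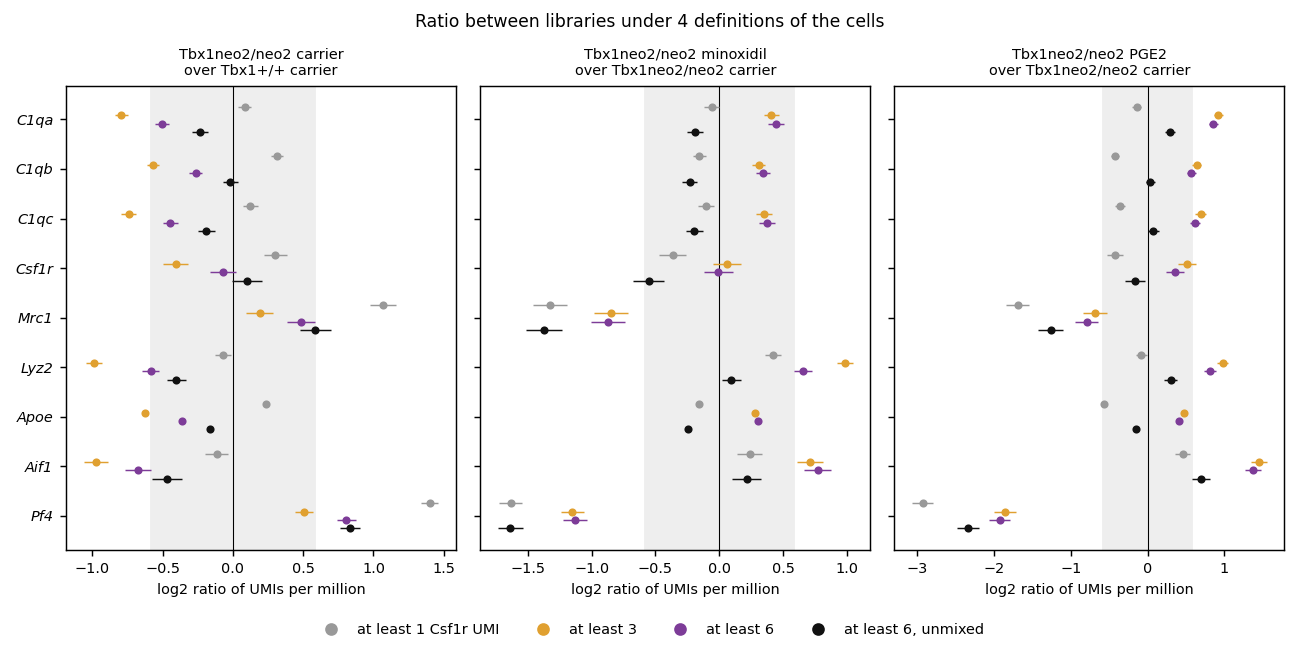
Log2 ratio of each member in the 3 contrasts, for cells with at least 1, 3 or 6 Csf1r UMIs and the unmixed cells among the last, with 95% intervals for counting error. The grey band spans ratios within 1.5-fold, and Pf4 lies outside it in every gate and contrast shown except at 3 UMIs in Tbx1neo2/neo2 over Tbx1+/+ carrier, while the C1q genes lie on both sides of 0 in each contrast.

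Mrc1 and Pf4 were the only members past 1.5-fold in Csf1r-positive cells. Of 9 members tested with at least 100 UMIs in the 2 libraries, 2 were higher in Tbx1neo2/neo2 carrier than in Tbx1+/+ carrier, where 13.3% of 10607 genes were higher by that fold, and none was lower, where 7.55% were. In minoxidil 2 members were lower than in Tbx1neo2/neo2 carrier and none higher, with 14.0% and 7.97% of 9938 genes. In PGE2 likewise 2 were lower and none higher, with 13.6% and 7.95% of 9879 genes. The rule that chose the members used these levels, so nothing is read from the counts.

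With at least 3 Csf1r UMIs, none was higher and 5 were lower in Tbx1neo2/neo2 carrier than in Tbx1+/+ carrier (11.2% and 7.02% of 8662 genes). In minoxidil 2 were higher and 2 lower (8.90% and 17.9% of 8211 genes), and in PGE2 5 were higher and 2 lower (9.93% and 20.8% of 7858 genes).

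With at least 6 Csf1r UMIs, further members were past the fold. Lyz2 was at 1484, 989, 1555 and 1744 CPM in Tbx1+/+ carrier, Tbx1neo2/neo2 carrier, minoxidil and PGE2. Aif1 was at 676, 423, 721 and 1098 CPM. Both were lowest in Tbx1neo2/neo2 carrier, and the fold of Aif1 in PGE2 over Tbx1neo2/neo2 carrier was 2.60. In this gate 1 member was higher and 2 were lower in Tbx1neo2/neo2 carrier than in Tbx1+/+ carrier, against 7.48% and 5.02% of 7331 genes. In minoxidil 2 were higher and 2 lower (6.92% and 14.9% of 6442 genes), and in PGE2 4 were higher and 2 lower (8.63% and 17.5% of 6130 genes).

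Leaving out the mixed cells took most of these differences back within the fold. Lyz2 was then at 2209, 1671, 1782 and 2061 CPM and Aif1 at 930, 672, 779 and 1089 CPM. Only Aif1 in PGE2 over Tbx1neo2/neo2 carrier remained past 1.5-fold besides Pf4 and Mrc1, at 1.62-fold, and it is the 1 member higher in PGE2 where 6.85% of 3811 genes were higher by that fold. The members past the fold were otherwise 2 higher in Tbx1neo2/neo2 carrier (2.65% of 4598 genes) with none lower (4.50%), 2 lower in minoxidil (9.49% of 4331 genes) and 2 lower in PGE2 (8.66%). Median cells gave Lyz2 at 1053, 671, 802 and 1134 CPM and Aif1 at 706, 522, 691 and 1133 CPM.

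**Figure D4:**
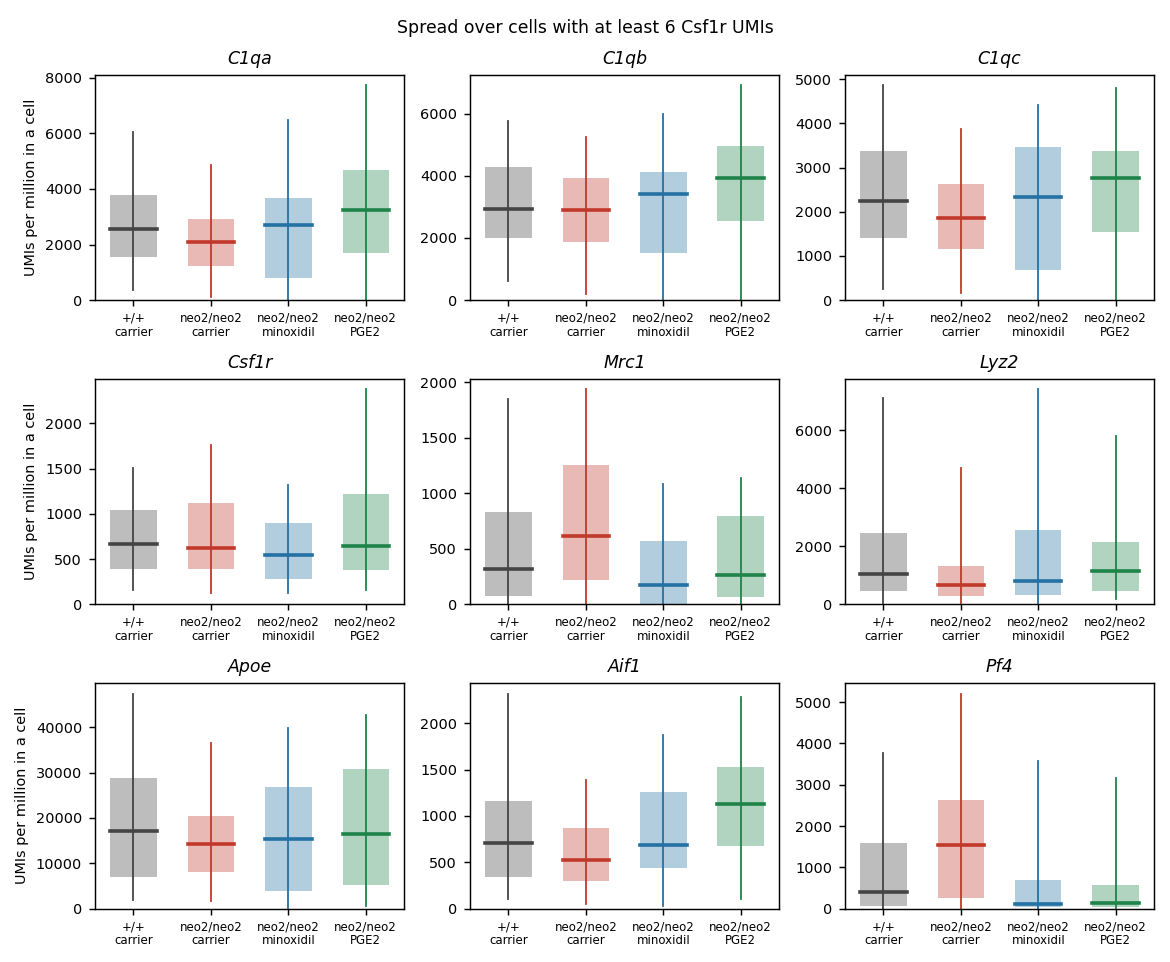
CPM in single cells with at least 6 Csf1r UMIs for each member and library. Bars are medians, boxes span the 25th to 75th and lines the 5th to 95th percentile of cells. Pf4 reaches from 0 at the 5th percentile to 3766 CPM at the 95th in Tbx1+/+ carrier, and its median is highest in Tbx1neo2/neo2 carrier.

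Apoe was the most abundant member, at 3899 CPM in Csf1r-positive cells of Tbx1+/+ carrier, 4581 in Tbx1neo2/neo2 carrier, 4096 in minoxidil and 3103 in PGE2. In unmixed cells with at least 6 Csf1r UMIs it reached 19019, 16991, 14310 and 15304 CPM. Apoe stayed within 1.5-fold in all 3 contrasts in both gates. Csf1r, which the gates used, was at 761, 814, 555 and 725 CPM in the unmixed cells. Of cells with at least 6 Csf1r UMIs, 80.9% in Tbx1+/+ carrier, 89.8% in Tbx1neo2/neo2 carrier, 70.3% in minoxidil and 74.3% in PGE2 held UMIs of all 8 members other than Csf1r.

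Outside Csf1r-positive cells the members differed in how they were shared with other cells. C1qa, C1qb and C1qc stayed between 0.108 and 2.69 CPM in other Ptprc-positive cells of every library, and between 0.155 and 1.74 CPM in epithelial cells. Csf1r-positive cells held 89.8% to 97.1% of all C1qa UMIs of a library. Within the other cell types pooled, the 3 chains made up 32.3%, 41.1% and 26.7% of C1q UMIs, close to the 32.8%, 39.6% and 27.6% of Csf1r-positive cells, with intervals that overlapped for each chain. Cells that carried macrophage markers without a Csf1r UMI held 1358 C1q UMIs. This class includes Ptprc-positive cells, so not all of these UMIs are among the 3244 of the other cell types. Apoe was not in a fixed ratio to C1q. There were 2.09 Apoe UMIs per C1q UMI in Csf1r-positive cells, 2.002 in the macrophage-marked cells without Csf1r, 10.2 in the other cell types together and 27.8 in other Ptprc-positive cells.

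Apoe was counted in nearly every class. It was at 96.2, 123, 131 and 97.9 CPM in other Ptprc-positive cells and at 59.7, 57.7, 57.5 and 65.2 CPM in epithelial cells of Tbx1+/+ carrier, Tbx1neo2/neo2 carrier, minoxidil and PGE2. In mesenchymal cells Apoe was at 74.6, 35.7, 69.3 and 49.5 CPM, lowest in Tbx1neo2/neo2 carrier. Between 60.2% and 82.4% of a library's Apoe UMIs were in Csf1r-positive cells. Cells that carried macrophage markers without a Csf1r UMI, 48, 58, 23 and 21 per library, had medians of only 1104 to 2987 UMIs and held C1qa at 376 to 1709 CPM, so the Csf1r gate left out some shallow cells with C1q.

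Lyz2 and Pf4 had a second strong class each. Lyz2 was at 10323, 5643, 5170 and 14884 CPM in granulocytic cells, above its level in Csf1r-positive cells in every library, but these were only 17, 8, 6 and 2 cells. Pf4 was at 18769, 3109 and 36935 CPM in the 5, 13 and 6 megakaryocyte-marked cells of Tbx1+/+ carrier, Tbx1neo2/neo2 carrier and minoxidil, with none in the 1 such cell of PGE2. Endothelial cells held Pf4 at 19.2, 10.7, 12.1 and 12.5 CPM, and mesenchymal cells at 8.20, 3.85, 8.99 and 9.44 CPM. In mesenchymal cells Pf4 was thus lowest in Tbx1neo2/neo2 carrier, the library in which Csf1r-positive cells held the most. All 6 members measured in mesenchymal cells were lower in Tbx1neo2/neo2 carrier than in Tbx1+/+ carrier there, against 12.3% of 13545 genes. Among other Ptprc-positive, epithelial, mesenchymal and endothelial cells, Mrc1 was highest in endothelial cells, at 4.24, 1.34, 0.402 and 5.96 CPM. The value in minoxidil, from 82 endothelial cells, lay below the level of 3 UMIs, so the order there rests on very few counts. Aif1 stayed at or below 2.63 CPM in other Ptprc-positive, epithelial, mesenchymal and endothelial cells.

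**Figure D5:**
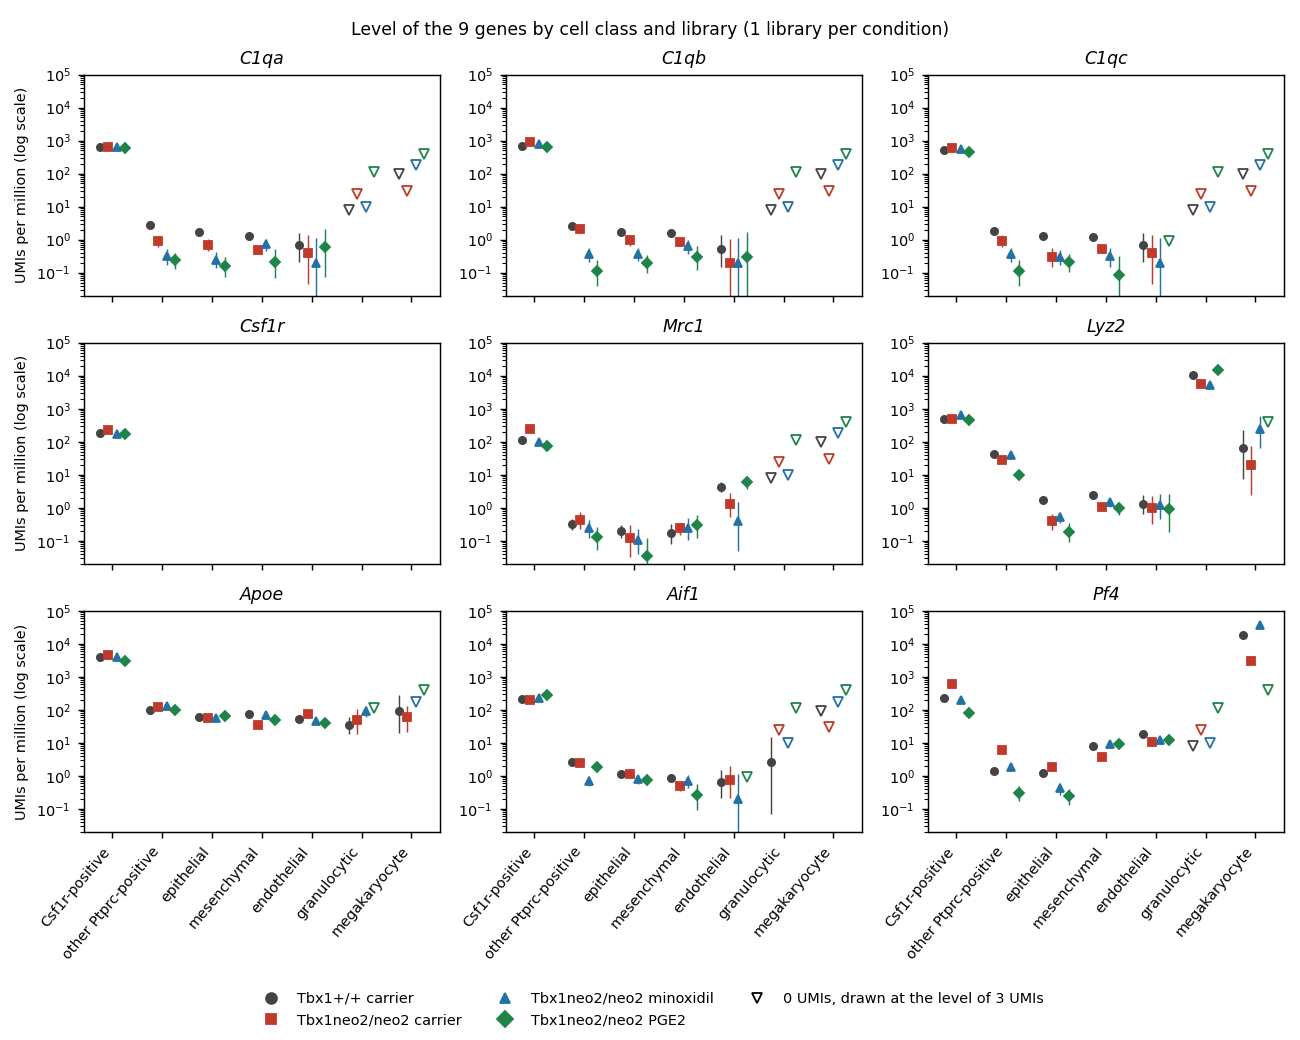
Level of each member (CPM, log scale) in Csf1r-positive cells, other Ptprc-positive cells and the other cell types of each library, with bars for 95% Poisson intervals of counting error and open triangles for 0 UMIs, drawn at the level of 3 UMIs. Csf1r is drawn for Csf1r-positive cells only, since the gate used it, and Lyz2 is highest in granulocytic cells and Pf4 in megakaryocyte-marked cells where it was detected there.

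Of 14 measured scavenger and clearance genes, 6 were higher in Tbx1neo2/neo2 carrier than in Tbx1+/+ carrier (13.3% of all genes) and none was lower (7.55%), with a median log2 ratio of 0.55 against -0.01 over all genes. At 3 Csf1r UMIs, 2 of 13 were higher (11.2% of all genes) and 2 lower (7.02%), with a median of -0.29. Lyve1, a hyaluronan receptor gene, was at 43.2, 147, 53.2 and 81.5 CPM in Tbx1+/+ carrier, Tbx1neo2/neo2 carrier, minoxidil and PGE2, and the scavenger receptor gene Stab1 at 114, 241, 104 and 106 CPM. Both were highest in Tbx1neo2/neo2 carrier. Of 13 measured, 5 were lower in minoxidil and 8 in PGE2 than in Tbx1neo2/neo2 carrier, and 1 was higher in each, with medians of -0.41 and -0.85 against -0.03 and -0.03. Over all genes 14.0% and 13.6% were lower and 7.97% and 7.95% higher. That 1 gene was Timd4, a receptor for dying cells, at 6.73 CPM in Tbx1neo2/neo2 carrier, 10.3 in minoxidil and 13.2 in PGE2. Colec12, the lipoprotein scavenger Cd36 and Lyve1 were among those lower in both drug libraries, with log2 ratios of -0.72, -0.67 and -1.47 in minoxidil and -1.46, -1.57 and -0.85 in PGE2.

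The lists were chosen with earlier results of these data known. The mesenchymal markers summed to 623 CPM in Csf1r-positive cells of Tbx1+/+ carrier, 2683 in Tbx1neo2/neo2 carrier, 1204 in minoxidil and 864 in PGE2, with all 8 detected in each. Their part in the ratios of these lists was not tested. In the unmixed cells with at least 6 Csf1r UMIs, where these markers summed to 39.3 to 88.5 CPM, 1 of 12 scavenger and clearance genes was higher (2.65% of all genes) and 1 lower (4.50%) in Tbx1neo2/neo2 carrier than in Tbx1+/+ carrier. There, 6 of 11 were lower in minoxidil (9.49%) and 6 of 10 in PGE2 (8.66%) than in Tbx1neo2/neo2 carrier, none was higher in minoxidil (7.60%) and 2 were higher in PGE2 (6.85%). In cells with at least 3 Csf1r and 10 C1q UMIs the direction turned, with 6 of 13 higher and 1 lower in minoxidil (10.2% and 21.2% of all genes). In PGE2 5 were higher and 3 lower (11.6% and 23.1%), and the medians were 0.47 and 0.47. With the mixed cells left out of that class, 2 of 11 were higher and 3 lower in minoxidil (5.60% and 6.75%). In PGE2 2 of 10 were higher and 5 lower (7.58% and 7.81%). In the unmixed cells with at least 6 Csf1r UMIs, Lyve1 had the highest ratio of the list in Tbx1neo2/neo2 carrier and the lowest in both drug libraries. It was at 257, 605, 207 and 63.7 CPM there over the 4 libraries. Stab1 was at 576, 861, 362 and 360 CPM there, so both genes went the way of Pf4 and Mrc1.

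Of 20 measured macrophage identity genes, 5 were higher in Tbx1neo2/neo2 carrier than in Tbx1+/+ carrier and none lower, 5 were lower in minoxidil, and 6 were lower and 2 higher in PGE2, with medians of 0.17, -0.16 and -0.34. The shares over all genes in Csf1r-positive cells are those given for the scavenger genes. The direction turned with the gate. At 6 Csf1r UMIs none of the 20 was higher and 3 were lower in Tbx1neo2/neo2 carrier (7.48% and 5.02% of all genes). In minoxidil 5 were higher and none lower (6.92% and 14.9%), and in PGE2 9 were higher and 2 lower (8.63% and 17.5%). The medians were -0.20, 0.24 and 0.44. In the unmixed cells of this gate 1 was lower in Tbx1neo2/neo2 carrier (4.50%) and 6 were lower in minoxidil (9.49%). In PGE2 3 were higher (6.85%) and 4 lower (8.66%) there. The list thus had no direction that held across gates. Over Csf1r-positive cells, the transcription factor gene Maf was at 167, 313, 162 and 181 CPM over the 4 libraries, and the signalling adaptor gene Tyrobp at 768, 778, 785 and 802 CPM. Tyrobp thus stayed nearly level while Maf was highest in Tbx1neo2/neo2 carrier. Folr2, a folate receptor gene, was at 29.6, 46.3, 26.9 and 10.5 CPM, lowest in PGE2. Spi1, which encodes PU.1, was at 194, 153, 202 and 194 CPM and passed the fold in none of the 3 contrasts.

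Several complement partners of C1q were near 0. C1ra, C1rb and C1s1, whose products are the proteases of the C1 complex, and C4b were each at or below 0.654 CPM in the Csf1r-positive cells of every library. C3 was at 8.43, 5.89, 4.70 and 25.2 CPM, with a log2 ratio of 2.10 in PGE2 over Tbx1neo2/neo2 carrier. Serping1, the C1 inhibitor gene, was at 4.17, 8.60, 8.40 and 5.07 CPM, with a log2 ratio of 1.04 in Tbx1neo2/neo2 carrier over Tbx1+/+ carrier. Of 8 measured receptors for complement and C1q, 1 was higher and 3 lower in Tbx1neo2/neo2 carrier, with Lrp1 highest (1.24) and Itgax lowest (-1.12). Of 7 in each drug library, 2 were higher and 1 lower in minoxidil, and 1 higher and 3 lower in PGE2. The shares over all genes in these cells were 13.3% higher and 7.55% lower in Tbx1neo2/neo2 carrier, 7.97% and 14.0% in minoxidil, and 7.95% and 13.6% in PGE2. At 6 Csf1r UMIs 1 of 6 receptors was higher and none lower in Tbx1neo2/neo2 carrier (7.48% and 5.02% of all genes). At 3 UMIs 2 of 7 were higher and none lower in PGE2 (9.93% and 20.8%), so these counts depended on the gate. C3ar1, the receptor for C3a, was at 73.1, 107, 76.4 and 63.8 CPM.

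Of 11 measured lipid handling genes, 1 was higher and 2 lower in Tbx1neo2/neo2 carrier than in Tbx1+/+ carrier, with Trem2, a lipid-sensing receptor gene, at 107, 163, 108 and 82.1 CPM over the libraries. In minoxidil 2 of 10 were higher and 1 lower, and in PGE2 4 of 10 were lower and none higher, with the same shares over all genes as for the receptors. At 6 Csf1r UMIs 1 of 9 was lower and none higher in Tbx1neo2/neo2 carrier (5.02% and 7.48% of all genes). There 2 were higher and none lower in minoxidil (6.92% and 14.9%) and in PGE2 (8.63% and 17.5%), so that the direction in PGE2 turned. In the unmixed cells of this gate 1 was higher (6.85%) and 3 lower (8.66%) in PGE2. Over Csf1r-positive cells Apoc1, a neighbour of Apoe, was at 81.5, 101, 180 and 107 CPM, highest in minoxidil. The ligands of Csf1r were higher in other cells. Csf1 was at 12.8, 11.1, 12.2 and 11.2 CPM in mesenchymal cells against 3.60, 7.94, 6.22 and 5.25 CPM in Csf1r-positive cells, and Il34 at 2.13, 1.74, 2.41 and 2.14 CPM in epithelial cells against at most 0.561 CPM in Csf1r-positive cells.

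The genes whose levels were most like each member were sought over 24 points, 4 libraries by 6 cell classes, by Pearson correlation of log2(CPM + 1). The points share libraries, so the values are a description. Csf1r is at 0 by the gate in every class other than Csf1r-positive cells, so its own values are largely set by the gate. Ms4a7 was the most like C1qa (r = 0.995), C1qb (0.995), C1qc (0.993) and Csf1r (0.998). P2ry6 was the most like Pf4 (0.950), Ltc4s like Mrc1 (0.982), Ly86 like Lyz2 (0.994), Sirpa like Apoe (0.967) and AF251705 like Aif1 (0.994). The genes next in order were Fcgr1 for C1qa, AI607873 for C1qb and Csf1r, Tlr7 for C1qc, Abcd2 for Pf4, Crybb1 for Mrc1, Cd33 for Lyz2, Cd68 for Apoe and Casp1 for Aif1.

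Over all genes, many of the most extreme ratios in Csf1r-positive cells were of genes known from other cell types. Matn4 (789 against 4 UMIs), Agtr2 and Tbx5 had the largest ratios of Tbx1neo2/neo2 carrier over Tbx1+/+ carrier, and the parathyroid genes Pth (2 against 5707 UMIs) and Chga (1 against 2043) the smallest. In minoxidil over Tbx1neo2/neo2 carrier, Hist1h3b and Hspa1a had the largest ratios and the neutrophil gene S100a9 (6 against 2827 UMIs) the smallest. In PGE2, Mmrn1, Nts and Ccl21a had the largest and Matn4 and Tbx5 the smallest ratios over the same library. The part of these transcripts in the members' ratios was not tested beyond leaving out the mixed cells.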

How the data were processed

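Droplet libraries of E13 to 13.5 thymic lobes were deposited by the authors as counts, whole numbers of UMIs per gene and cell barcode. The submitters' processing notes name Cell Ranger 5.0.1, mm10 and Seurat, and whether intronic reads were counted is not given in the sources used here. No value was normalized by the authors in these files. The study's group labels gave 1 library per condition.

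Cells were kept with at least 200 detected genes and at most 10% mitochondrial UMIs, a limit chosen here since the study's methods give no number for it. Csf1r-positive cells had at least 1 Csf1r UMI, other Ptprc-positive cells had a Ptprc UMI and none of Csf1r, and the remaining cells were assigned by lists of marker genes or left unassigned. The UMIs of each class of cells were added up and given as CPM with exact Poisson intervals, log2 ratios with exact binomial intervals of the split of counts, and shares with exact Clopper-Pearson intervals, all at 95%. A gene was past the fold at a CPM ratio of at least 1.5 either way, for genes whose UMIs in both libraries came to at least 100, and no p-value was computed. The ratio step was tested on simulated data. Each of the 9 members was reported. Other genes were named by rule, as the 2 highest and 2 lowest ratios of each gene list, the 3 genes most like each member among those with at least 200 UMIs, and genes among the 5 largest and 5 smallest ratios per contrast, with a set of sex-linked genes left out. Counts over the list of complement partners and regulators are not reported here. Members and lists were chosen with earlier results of these data known, and genes such as Tyrobp, Spi1, Maf, Folr2, Plac8, Ccr2, S100a8, Hbb-bs and H2-Aa were singled out after their values had been seen.

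No doublets were removed. Scrublet scores were computed, but its threshold called none of 10683 cells in Tbx1neo2/neo2 carrier and 567, 70 and 75 cells in Tbx1+/+ carrier, minoxidil and PGE2, so that it did not work in 1 library. Of the cell barcodes, 91 were found in more than 1 library, and 9 such cells were Csf1r-positive. The alternatives were 3 or 6 Csf1r UMIs, a Ptprc UMI in addition, at least 10 C1q UMIs, the unmixed cells, thinning to 5000 UMIs, mitochondrial limits of 5% and 20%, other scaling, a 2-fold limit and leaving out shared barcodes or the top 5% of Scrublet scores. Promoter sequences were read from RefSeq for GRCm38.p6. Python 3.11.15, numpy 2.4.6, scipy 1.17.1, pandas 2.3.3, scanpy 1.11.5, matplotlib 3.10.9, R 4.3.3 and edgeR 4.0.16 (TMM factors only) were used.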

Additional observations from a re-analysis of the deposited data

Results flagged for a closer look

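Pf4 had opposite directions in mesenchymal and in Csf1r-positive cells. In mesenchymal cells Pf4 was at 8.20, 3.85, 8.99 and 9.44 CPM in Tbx1+/+ carrier, Tbx1neo2/neo2 carrier, minoxidil and PGE2, and in Csf1r-positive cells at 235, 619, 199 and 81.5 CPM. For Tbx1neo2/neo2 carrier over Tbx1+/+ carrier the log2 ratio was -1.09 in mesenchymal and 1.40 in Csf1r-positive cells. For minoxidil over Tbx1neo2/neo2 carrier it was 1.23 and -1.64, and for PGE2 over the same library 1.30 and -2.93. All 6 members measured in mesenchymal cells were lower in Tbx1neo2/neo2 carrier than in Tbx1+/+ carrier (12.3% of genes), so the direction there was not particular to Pf4. Pf4 UMIs were found in epithelial cells too, at 1.19, 1.83, 0.420 and 0.241 CPM over the 4 libraries. The difference between the cell classes was not tested, since there was 1 library per condition.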

How the results depend on the processing

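No paired analysis was possible because there was 1 library per condition. For the same reason leaving out a library was not done. Some classes were small, such as the 10 cells with at least 3 Csf1r UMIs and no C1q in Tbx1neo2/neo2 carrier. The granulocytic and megakaryocyte-marked classes held still fewer cells in most libraries. The levels of such classes rest on few cells and have wide counting intervals. Leaving out the doublets that Scrublet calls was planned and not run, since its threshold called none in 1 library, and the top 5% of scores was left out in its place. The gate of 6 Csf1r UMIs, the unmixed cells, the C1q minimum and the score limit were chosen after seeing the data. Where a value below turned or moved, the cause was not tested.

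The share of Csf1r-positive cells, 3.90%, 2.82%, 3.81% and 3.16% in Tbx1+/+ carrier, Tbx1neo2/neo2 carrier, minoxidil and PGE2, was 1.22%, 1.70%, 1.59% and 1.11% at 3 Csf1r UMIs and 0.959%, 1.28%, 1.16% and 0.843% at 6. It was 2.75%, 2.06%, 2.59% and 2.26% with a Ptprc UMI in addition and 2.06%, 1.74%, 1.32% and 1.29% after thinning to 5000 UMIs. With mitochondrial UMIs at most 5%, PGE2 was at 2.42%. The share of cells with all 3 C1q genes, 34.9%, 67.1%, 38.5% and 29.0%, was 96.4%, 98.5%, 83.8% and 91.4% at 6 Csf1r UMIs.

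In Tbx1neo2/neo2 carrier over Tbx1+/+ carrier, 2 members were higher and 0 lower. At 3 Csf1r UMIs 0 were higher and 5 lower, at 6 UMIs 1 and 2, at 3 Csf1r and 10 C1q UMIs 0 and 6, and in the unmixed cells of that class 1 was higher. In minoxidil 0 were higher and 2 lower. At 3 or at 6 Csf1r UMIs and with mitochondrial UMIs at most 5% 2 were higher, with a Ptprc UMI 1 was higher, at 3 Csf1r and 10 C1q UMIs 7 were higher and 0 lower, and after thinning 1 was lower. In PGE2 0 were higher and 2 lower. With a Ptprc UMI, with mitochondrial UMIs at most 5% and in both unmixed classes 1 was higher, at 3 Csf1r UMIs 5, at 6 UMIs 4, and at 3 Csf1r and 10 C1q UMIs 7 were higher and 1 lower. The counts at 3 Csf1r and 10 C1q UMIs include genes that set the gate.

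Some log2 ratios that were past 1.5-fold under an alternative had the opposite sign over Csf1r-positive cells. At 3 Csf1r UMIs these were C1qa (-0.79), C1qc (-0.74) and Apoe (-0.63) in Tbx1neo2/neo2 carrier over Tbx1+/+ carrier, and C1qa (0.92), C1qb (0.64), C1qc (0.69) and Lyz2 (0.98) in PGE2. At 6 UMIs they were C1qa (0.86), C1qc (0.62) and Lyz2 (0.82) in PGE2. At 3 Csf1r and 10 C1q UMIs they were C1qa (-0.94), C1qb (-0.72), C1qc (-0.89) and Apoe (-0.78) in Tbx1neo2/neo2 carrier over Tbx1+/+ carrier. In minoxidil there they were C1qa (1.19), C1qb (1.10), C1qc (1.14), Csf1r (0.72) and Apoe (1.07), and in PGE2 C1qa (1.39), C1qb (1.10), C1qc (1.16), Csf1r (0.91), Lyz2 (1.11) and Apoe (0.95). Among the other alternatives, which were both unmixed classes, the Ptprc gate, thinning, other mitochondrial limits, TMM scaling, the mean over cells, shared barcodes and doublet scores, no member's log2 ratio past 1.5-fold had turned. Pf4 and Mrc1 kept their sign under all 13 alternatives, which re-used the same libraries and are no replication. For Mrc1 the log2 ratio nearest 0 was 0.04 in Tbx1neo2/neo2 carrier over Tbx1+/+ carrier, -0.06 in minoxidil and -0.21 in PGE2. For Pf4 it was 0.35, -0.36 and -1.38.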
